A study of Mus musculus with 6 samples.

Results

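Receptor tyrosine kinases, without the ephrin receptors, were followed in mouse Neuro2A cells (N2A, a neuroblastoma line labelled as neuroblasts) after silencing of the circular RNA circCpsf6. The members were 39 named genes, found by symbol in a table of 55385 genes, and the rule is a list of names with no threshold on a value. Cells were transfected with a control small interfering RNA (siRNA), si-NC, or with an siRNA against the circle, si-circCpsf6, each at 100 nM and each in 3 libraries. All libraries come from 1 cell line, and no label gives the siRNA sequences. For each gene and library there is 1 FPKM value, a fragment count divided by transcript length and by library size.

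Most receptor tyrosine kinases are single-pass membrane proteins that bind a growth factor outside the cell and carry a tyrosine kinase inside it. Ligand binding pairs the receptors, which phosphorylate each other and recruit adaptors that feed the RAS and ERK, PI3K and phospholipase C pathways. The list of names also holds members that depart from this description, such as Ryk, which lacks kinase activity, and Lmtk2, a kinase of endosomal traffic. In cells of the sympathetic lineage, from which neuroblastomas arise, RET, ALK and the neurotrophin receptors are known for roles in growth, survival and differentiation.

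The host gene was read first. Cpsf6 was at 14.09, 14.50 and 15.20 FPKM in si-NC and at 10.65, 15.06 and 14.50 FPKM in si-circCpsf6, with overlapping groups, and a gene value does not measure the circle. Between 12671 and 13080 genes reached 1 FPKM in a library. Read counts were not recovered: 30.1% to 36.1% of low, length-scaled values were whole multiples of 1 step within 0.1. The depth behind a value is therefore unknown. No label states that the replicates were separate cultures, and a p-value here reflects only library-to-library spread, which may be technical.

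Of the 39 receptors, 16 averaged 1 FPKM or more across the 6 libraries and were called expressed. A further 4 lay between 0.5 and 1 FPKM (Axl, Ptk7, Pdgfra and Tek). The other 19 never passed 0.12 FPKM in a library, and 3 of them (Flt3, Ror2 and Musk) were listed at 0 in all 6. Levels can be compared between receptors because FPKM is per transcript length.

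**Figure D1:**
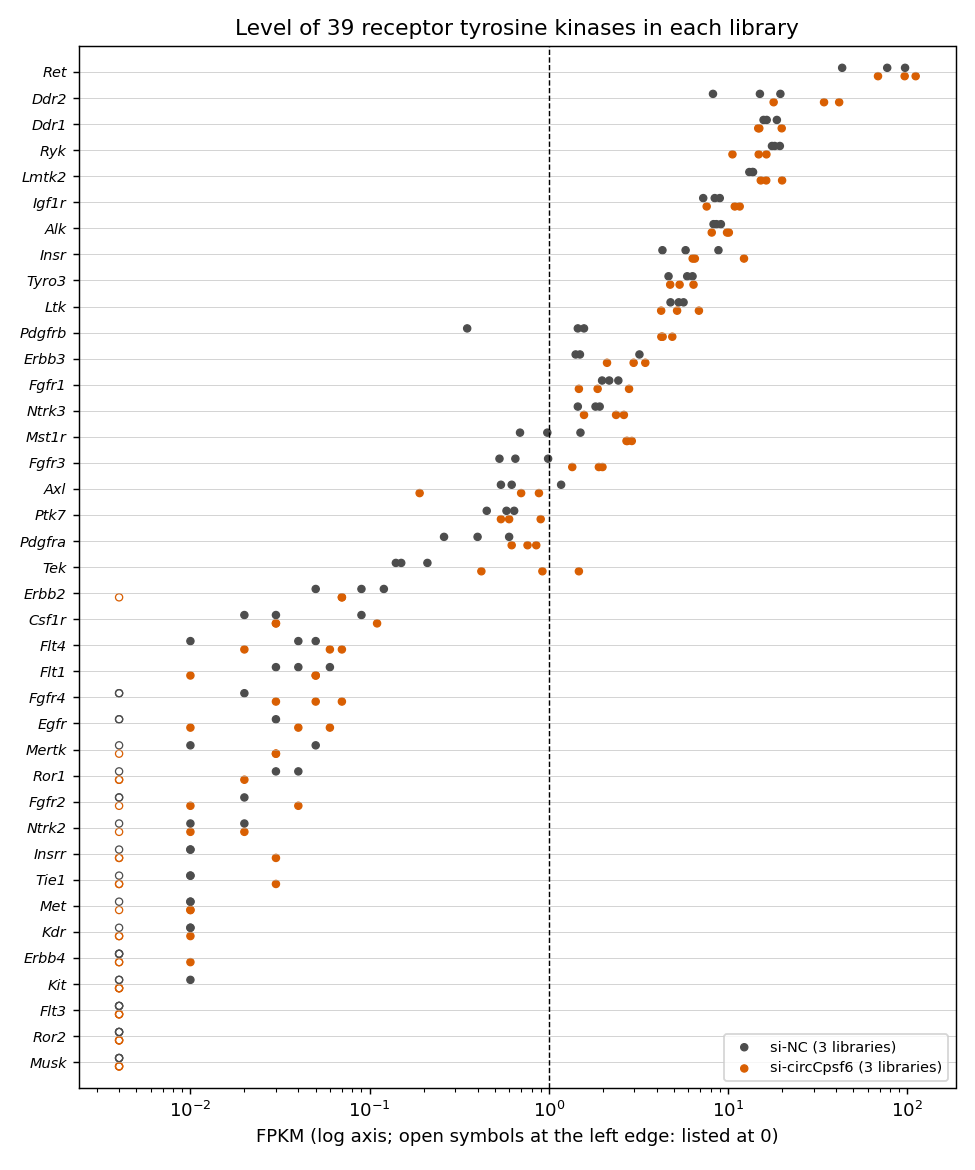
Level of each of the 39 receptors in FPKM on a log axis, with 3 si-NC and 3 si-circCpsf6 libraries as points, equal values covering each other, and open symbols for values listed at 0. The dashed line marks 1 FPKM, and the 16 receptors at the top have a mean above it, from Ret at 82.3 to Fgfr3 at 1.24 FPKM.

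Ret, the signalling receptor for the GDNF family of neurotrophic factors, stood above every other member. It read 97.07, 43.27 and 77.17 FPKM in si-NC and 96.57, 68.57 and 111.24 FPKM in si-circCpsf6. Its lowest value lay above the highest value of the next receptor, Ddr2 (41.63 FPKM), and its mean ranked 466 in the whole table. Ret made up 28.1% to 46.5% of the summed FPKM of the 39 receptors in si-NC and 34.1% to 43.1% in si-circCpsf6. The sum itself ran from 154 to 209 FPKM in si-NC and from 201 to 258 FPKM in si-circCpsf6, and the ranges overlapped. With Ret removed, the control libraries summed to 102 to 112 FPKM. The libraries with the circle silenced summed to 131 to 147 FPKM, and those ranges did not overlap. Much of this gap lay in 1 receptor, Ddr2, whose mean was 14.28 FPKM with the control siRNA and 31.28 FPKM with the other. The Ddr2 groups themselves overlapped, and the sum without both Ret and Ddr2 was not taken. The gap is therefore not a rise shown for the receptors as a set.

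**Figure D2:**
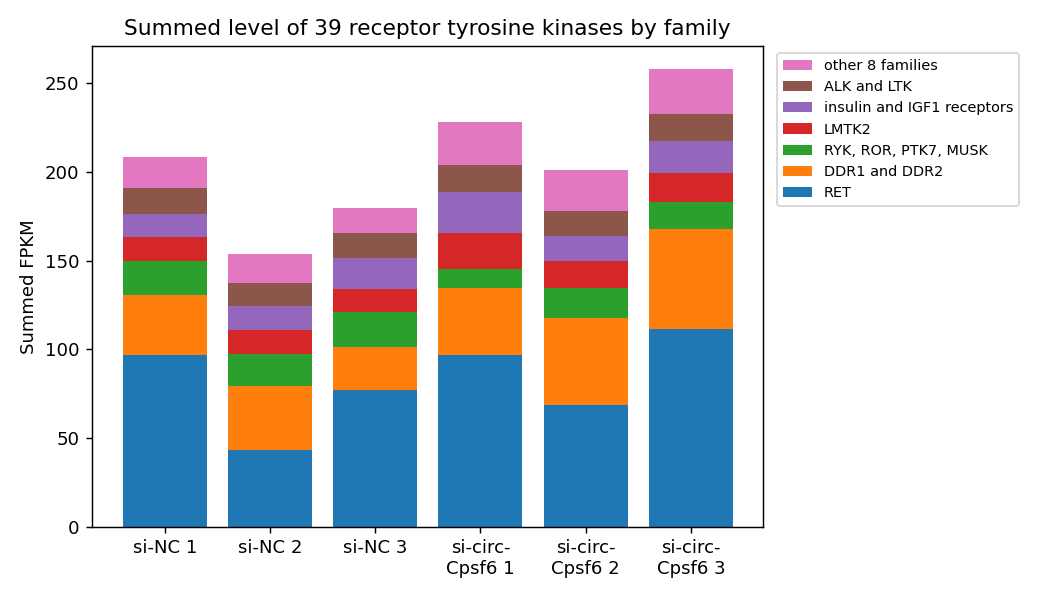
Summed FPKM of the 39 receptors in each of the 6 libraries, stacked by receptor family, with 1 bar per library. RET (blue) and the 2 discoidin domain receptors (orange) take the largest parts, and si-NC replicate 2 has the smallest sum, 154 FPKM.

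Below Ret came a group at 10 FPKM or more, made up of the collagen receptors Ddr2 and Ddr1, the WNT-binding pseudokinase Ryk and the endosomal kinase Lmtk2. The other 11 expressed receptors had means of 1 to 10 FPKM. In descending order these were Igf1r, Alk, Insr, Tyro3, Ltk, Pdgfrb, Erbb3, Fgfr1, Ntrk3, Mst1r and Fgfr3. Of the 15 neighbouring pairs in the order of level, only 2 were apart over all 6 libraries, Ret from Ddr2 and Lmtk2 from Igf1r. In the other 13 pairs the ranges overlapped, so the order within them is not fixed by these data.

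The 2 siRNAs were compared to find receptors whose level differed once the circle was silenced. Of the 16 tested receptors, 1 rose and none fell (limma on log2(FPKM + 1), Benjamini-Hochberg adjusted p under 0.05). Over all 12974 tested genes the shares were 0.902% called higher and 0.786% called lower, or 1.69% in either direction. At an unadjusted p under 0.05, 4 receptors (Pdgfrb, Mst1r, Fgfr3 and Ddr2) were higher and 0 were lower, against 10.2% and 10.1% of all tested genes. By the q-values of the authors' deposited table the same 4 were higher at q under 0.05 and 0 were lower, against 3.22% and 2.29% of the tested genes. The fold change was above 0 in 12 of 16 receptors, against 47.2% of all tested genes. The median log2 fold change was 0.28 for the receptors and -0.02 for all tested genes. Under median centring and under quantile normalization 12 of 16 were again above 0, and with 1 library left out 11 to 14 were. The 3 values of one group lay apart from those of the other in 5 of 16 receptors (31.2%), a share near the 26.9% of all tested genes. Fgfr3 reached the tested level only through its si-circCpsf6 values, so the counts that include it are not independent of the filter.

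**Figure D3:**
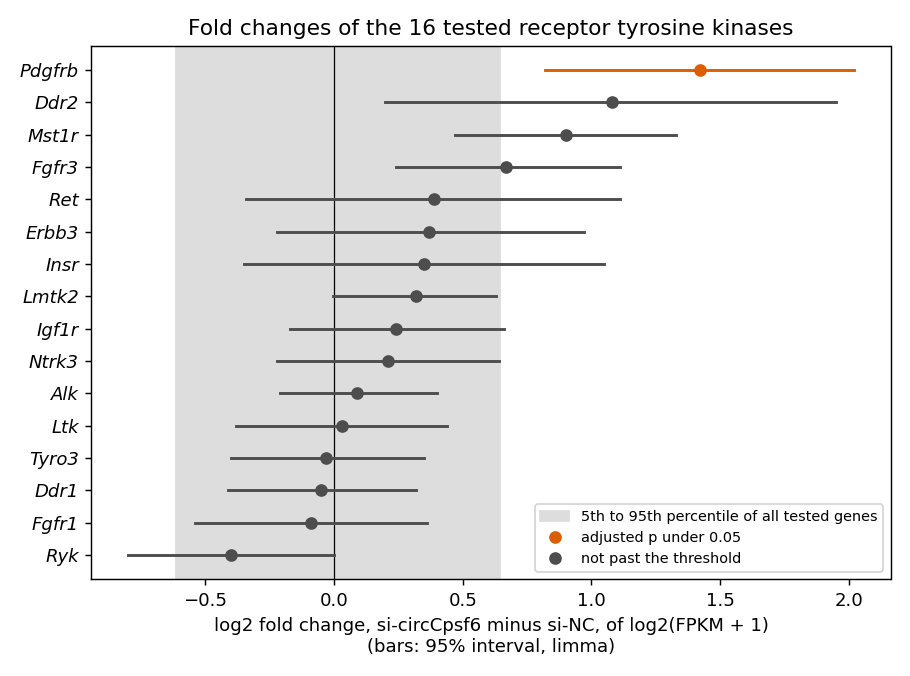
Log2 fold change (si-circCpsf6 minus si-NC, of log2(FPKM + 1)) of the 16 tested receptors, with 95% intervals from limma as bars and the middle 90% of all tested genes shaded in grey. Pdgfrb, at 1.42, is the receptor past the adjusted threshold, and the intervals of Ddr2, Mst1r and Fgfr3 also lie above 0.

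Pdgfrb, the receptor for PDGF-BB and a mitogenic receptor of mesenchymal and mural cells (ENSMUSG00000024620, chromosome 18, 61045150 to 61085061, GRCm38), was the receptor that rose. It read 1.57, 1.45 and 0.35 FPKM in si-NC and 4.31, 4.24 and 4.88 FPKM in si-circCpsf6. The si-circCpsf6 libraries were close together and all above the si-NC libraries, among which replicate 3 was low. The means were 1.12 ± 0.672 and 4.48 ± 0.351 FPKM (SD, n = 3 each), a log2 fold change of 1.42 with a standard error of 0.26 (limma adjusted p = 0.0455). The call stood close to the threshold. It was lost when any 1 library was left out (limma adjusted p from 0.0858 without si-circCpsf6 replicate 1 to 0.133 without si-circCpsf6 replicate 3, with log2 fold changes of 1.12 to 1.59), with a pseudocount of 0.1 (0.0787) and with no filter on low values (0.141).

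Fibroblasts and mural cells carry this receptor in tissues, and their markers were read beside it. The summed level of the 11 markers of that list was 13.9, 1.39 and 2.62 FPKM in si-NC, and it was 11.5, 1.23 and 4.55 FPKM in si-circCpsf6. In both groups the sum was highest in replicate 1 and lowest in replicate 2, and the ranges of the groups overlapped. Of the 11, 2 were tested (Acta2 and Col1a1), neither passed in either direction, and neither had an unadjusted p under 0.05. The part of these cells in the Pdgfrb result was not tested. Fewer cells of a type and less RNA per cell cannot be told apart in such bulk samples.

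Mst1r, the receptor for macrophage-stimulating protein (also called RON), missed the threshold narrowly. It read 0.69, 1.50 and 0.98 FPKM in si-NC and 2.74, 2.71 and 2.90 FPKM in si-circCpsf6. All si-circCpsf6 values were above all si-NC values and lay close together. The log2 fold change was 0.90 (SE 0.18, 95% interval 0.47 to 1.33, limma adjusted p = 0.0592, and 0.0532 to 0.225 over its alternatives). The authors' deposited table lists it with a q-value of 0.01. Epithelial cells are the usual site of this receptor, and their 7 markers summed to 0.6 to 0.96 FPKM in si-NC and 1.09 to 1.45 FPKM in si-circCpsf6. These ranges did not overlap, but without Krt8, the highest of the 7, the sums were 0.08 to 0.29 and 0.0 to 0.09 FPKM and overlapped. None of the 7 averaged 1 FPKM, Krt18 was listed at 0, and the part of these markers in the Mst1r result was not tested. Its ligand gene Mst1 read 3.00, 7.25 and 2.42 FPKM in si-NC and 4.53, 5.48 and 4.73 FPKM in si-circCpsf6, with overlapping groups.

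Fgfr3, a receptor for fibroblast growth factors, had the next smallest p. It read 0.99, 0.53 and 0.65 FPKM in si-NC and 1.99, 1.35 and 1.90 FPKM in si-circCpsf6. The groups did not overlap, but the gene reached the tested level only through its si-circCpsf6 values. The log2 fold change was 0.67 (SE 0.19, 95% interval 0.24 to 1.11, limma adjusted p = 0.109). The authors' deposited table lists a q-value of 0.02. Fgfr1, the FGF receptor with the highest mean, read 2.44, 1.98 and 2.17 FPKM in si-NC and 2.80, 1.87 and 1.47 FPKM in si-circCpsf6, with overlapping groups (limma adjusted p = 0.835). The values of Fgfr1 and Fgfr3 overlapped, and in si-circCpsf6 replicate 3 Fgfr3 was the higher of the 2. The other 2 FGF receptors, Fgfr2 and Fgfr4, stayed at or below 0.07 FPKM.

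Ddr2, a receptor for fibrillar collagens, had a larger fold change but a wide spread. It read 15.04, 19.57 and 8.23 FPKM in si-NC and 17.94, 34.28 and 41.63 FPKM in si-circCpsf6. The groups overlapped, because si-circCpsf6 replicate 1 read below si-NC replicate 2. The log2 fold change was 1.08 (SE 0.37, 95% interval 0.20 to 1.95, limma adjusted p = 0.169), and it was 0.75 to 1.42 with 1 library left out. The authors' deposited table lists a q-value of 0.02. Its relative Ddr1 read 18.70, 16.41 and 15.76 FPKM in si-NC and 19.90, 14.72 and 14.92 FPKM in si-circCpsf6, with a log2 fold change of -0.05 (95% interval -0.41 to 0.32). The difference between the fold changes of the 2 receptors was not tested.

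Ryk, which binds WNT ligands and lacks kinase activity, had the most negative fold change of the tested receptors. It read 18.18, 17.56 and 19.43 FPKM in si-NC and 10.57, 16.35 and 14.81 FPKM in si-circCpsf6. All si-circCpsf6 values were below all si-NC values, and replicate 1 was the lowest. The log2 fold change of -0.40 with a standard error of 0.17 did not pass the test (limma adjusted p = 0.246). Lmtk2, a kinase of endosomal traffic, was the converse case. It read 13.65, 13.77 and 13.13 FPKM in si-NC and 20.00, 15.21 and 16.31 FPKM in si-circCpsf6, with groups apart and a log2 fold change of 0.32 (SE 0.14, limma adjusted p = 0.251).

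**Figure D4:**
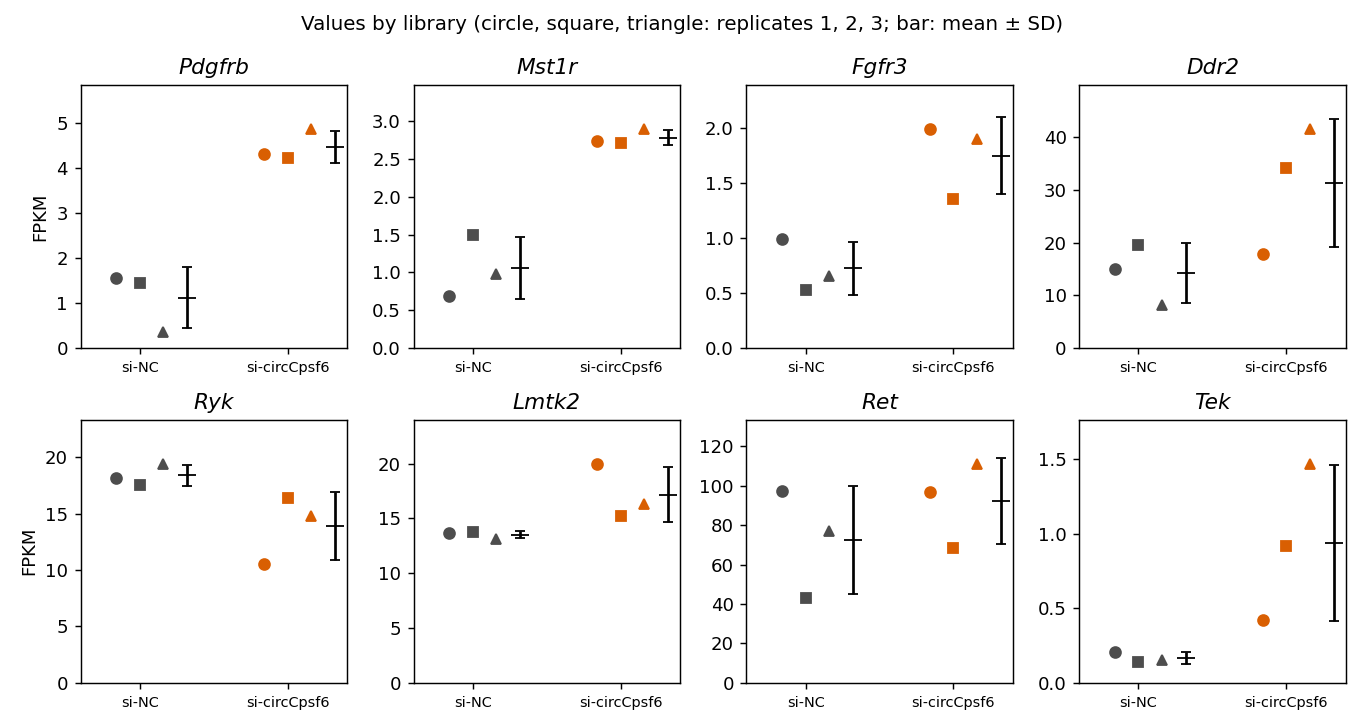
FPKM of 8 receptors in each library on axes that start at 0, with circles, squares and triangles for replicates 1, 2 and 3 and black bars for mean ± SD (n = 3). In Pdgfrb, Mst1r, Fgfr3, Lmtk2 and Tek the si-circCpsf6 points lie above all si-NC points, in Ryk they lie below, and in Ddr2 and Ret the groups overlap.

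The receptors best known in neuroblastoma did not pass the test. Ret had a log2 fold change of 0.39 with a standard error of 0.31 (95% interval -0.34 to 1.11, limma adjusted p = 0.53). The replicate 2 library was the lowest of its group in both groups, and without si-NC replicate 2 the fold change was 0.06. Alk, the receptor mutated in familial neuroblastoma, read 9.11, 8.29 and 8.60 FPKM in si-NC and 8.10, 9.86 and 10.09 FPKM in si-circCpsf6. The spread was small, at 4.78% and 11.6% of the mean, with a log2 fold change of 0.09 (95% interval -0.21 to 0.40, limma adjusted p = 0.736). Its close relative Ltk read 5.30, 4.77 and 5.64 FPKM against 6.87, 4.23 and 5.19 FPKM, also with overlapping groups. The interval of Ltk, -0.38 to 0.44, leaves room for changes of either sign.

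Among neurotrophin receptors, Ntrk3, the receptor for neurotrophin-3, was expressed and Ntrk2, the receptor for BDNF, was at or below 0.02 FPKM. Ntrk3 read 1.92, 1.82 and 1.45 FPKM in si-NC and 1.57, 2.37 and 2.62 FPKM in si-circCpsf6, with overlapping groups (log2 fold change 0.21, 95% interval -0.22 to 0.64). Ngfr, the low-affinity neurotrophin receptor that partners with this family, was higher in level, at 33.16, 20.73 and 22.26 FPKM in si-NC and 28.12, 42.91 and 41.64 FPKM in si-circCpsf6 (limma adjusted p = 0.234).

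Ntrk3 was also the single tested receptor whose 3' untranslated region (3' UTR) held GCAGAAT, a heptamer taken from an earlier search of these data, so that its counts here are a description only. The longest annotated 3' UTR of each gene was searched on the mRNA strand, with GENCODE M21 transcripts of GRCm38. The heptamer stood in 1 of 16 tested receptors (6.25%) and in 1189 of 10668 tested genes (11.1%). The Ntrk3 region is 16600 bases long, and 80.0% of the 10 tested genes with a 3' UTR of similar length (0.8 to 1.25 times) held the heptamer. Ryk, with 2809 bases, and Pdgfrb, with 1678, did not hold it. Of the receptors just below the tested level, Axl and Pdgfra held 1 copy each. The sites are shown because they are the copies of this sequence in receptors above 0.5 FPKM. Capitals mark the heptamer, with 8 bases on each side, 5′ to 3′ on the mRNA strand.
Ntrk3, chr7:78189962-78189984, minus strand: ggaggagtGCAGAATgggcccaa
Ntrk3, chr7:78183840-78183862, minus strand: gcacatttGCAGAATtcctactc
Ntrk3, chr7:78181539-78181561, minus strand: gagagaaaGCAGAATaaagccga
Axl, chr7:25758544-25758566, minus strand: ccccagatGCAGAATggccttcc
Pdgfra, chr5:75196183-75196205, plus strand: tcagatggGCAGAATgtccatca
The groups of Ntrk3 and Axl overlapped and those of Pdgfra lay apart with si-circCpsf6 higher. A match is a description of the letters and not of a working site.

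The insulin receptor family was expressed through both of its main members. Igf1r, the receptor for insulin-like growth factors, read 8.98, 7.26 and 8.42 FPKM in si-NC and 10.89, 7.59 and 11.60 FPKM in si-circCpsf6. Insr, the insulin receptor, read 4.30, 5.79 and 8.83 FPKM and then 12.26, 6.52 and 6.34 FPKM. Both had overlapping groups, with limma adjusted p of 0.492 and 0.557. The spread of Insr was wide in both groups, at 36.6% and 40.2% of the mean. Its interval (-0.35 to 1.05) leaves room for changes of either sign. The third member, Insrr, did not pass 0.03 FPKM.

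Of the ErbB receptors only Erbb3, which binds neuregulins and signals with a partner, was expressed. It read 1.49, 3.20 and 1.41 FPKM in si-NC and 3.45, 2.97 and 2.11 FPKM in si-circCpsf6 (limma adjusted p = 0.461). Its catalytically active partners were near 0, with Egfr at most at 0.06, Erbb2 at 0.12 and Erbb4 at 0.01 FPKM. Tyro3 was the main receptor of the TAM family, which binds GAS6 and protein S. It read 6.33, 4.65 and 5.91 FPKM in si-NC and 4.75, 5.36 and 6.41 FPKM in si-circCpsf6 (limma adjusted p = 0.95), whereas Mertk did not pass 0.05 FPKM.

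Among the 4 receptors between 0.5 and 1 FPKM, Tek, the angiopoietin receptor, differed most. It read 0.21, 0.14 and 0.15 FPKM in si-NC and 0.42, 0.92 and 1.47 FPKM in si-circCpsf6, so that the groups did not overlap. With the filter lowered to 0.5 FPKM its log2 fold change was 0.70 (SE 0.22, limma adjusted p = 0.152), while the authors' deposited table lists a q-value of 0.00. Tek passed that lower filter only through its si-circCpsf6 values. Its ligand gene Angpt2 was also below the tested level, at 0.27, 0.34 and 0.44 FPKM in si-NC and 0.96, 1.39 and 0.91 FPKM in si-circCpsf6, with groups apart. The 9 endothelial markers summed to 10.2 to 13.1 FPKM in si-NC and 7.47 to 14.8 FPKM in si-circCpsf6, with overlapping ranges. Of the 5 that were tested none passed. At an unadjusted p under 0.05, 0 were higher and 1 lower, against 10.2% and 10.1% of all tested genes. Vwf, the one that was lower at that level, read 2.39, 1.90 and 2.10 FPKM against 0.74, 0.23 and 1.10 FPKM (limma adjusted p = 0.0858). Vwf reached the tested level only through its si-NC values. Pecam1 and Esam reached it only through their si-circCpsf6 values, so these counts are not independent of the filter. The 5 tested markers had means of 5.33 (Egfl7), 2.07 (Plvap), 1.41 (Vwf), 1.16 (Pecam1) and 1.055 FPKM (Esam). The rest of the list, Cdh5, Cldn5, Robo4 and Emcn, had means of at most 0.0333 FPKM.

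Pdgfra, the sister of Pdgfrb, read 0.40, 0.60 and 0.26 FPKM in si-NC and 0.85, 0.62 and 0.76 FPKM in si-circCpsf6. The groups lay apart by 0.62 against 0.60 FPKM (limma adjusted p = 0.37 with the filter at 0.5 FPKM). Pdgfra also passed that filter only through its si-circCpsf6 values. Axl, the TAM receptor with the strongest affinity for GAS6, read 1.17, 0.62 and 0.54 FPKM and then 0.88, 0.19 and 0.70 FPKM. Ptk7, a pseudokinase of planar cell polarity, read 0.64, 0.58 and 0.45 FPKM and then 0.60, 0.90 and 0.54 FPKM. Both had overlapping groups.

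Whole families were near 0 in these cells. The VEGF receptors Flt1, Kdr and Flt4 did not pass 0.07 FPKM, and Kit, Flt3 and Csf1r, receptors of blood lineages, did not pass 0.11 FPKM. Met, the hepatocyte growth factor receptor, did not pass 0.01 FPKM, Tie1 0.03 FPKM and Ror1 0.04 FPKM. Fgfr4 was the one receptor at this level with groups apart, at 0.02, 0.00 and 0.00 FPKM against 0.03, 0.05 and 0.07 FPKM. No fold is given there, since an unknown number of reads lies behind such values. Exons of 4 tested receptors (Fgfr1, Fgfr3, Ddr1 and Ddr2) overlap a gene on the opposite strand, and those genes had group means of at most 0.163 FPKM.

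The other genes of receptor signalling were read by role, against the shares of all tested genes given above (0.902% called higher, 0.786% called lower, and 10.2% and 10.1% at an unadjusted p under 0.05). Of 63 ligand genes, 15 were tested, all 15 had a fold change above 0 (100.0%, against 47.2% of all tested genes), and the median was 0.43. Of the 15, 7 were higher and 0 lower at an unadjusted p under 0.05. One of these, Hbegf, reached the tested level only through its si-circCpsf6 values, so the counts are not independent of the filter. The count was 15 of 15 under both scalings and 14 or 15 with 1 library left out. Vegfc, the ligand of the receptor Flt4, passed the test alone. It read 4.0, 2.80 and 3.56 FPKM in si-NC and 11.65, 12.72 and 10.32 FPKM in si-circCpsf6 (log2 fold change 1.50, limma adjusted p = 0.0134). The call was lost without si-NC replicate 3 (limma adjusted p = 0.0699), without si-circCpsf6 replicate 2 (0.0615) and with no filter (0.0688). Further ligand genes are named for their receptors, after their values were seen. Vegfa read 31.91, 29.72 and 17.37 FPKM against 51.74, 53.72 and 48.18 FPKM (limma adjusted p = 0.0754). Fgf1, a ligand of all FGF receptors, read 3.09, 2.80 and 1.94 FPKM against 11.93, 7.56 and 4.75 FPKM (limma adjusted p = 0.0757). Both had groups apart with si-circCpsf6 higher. Ligand genes below the tested level went both ways. With groups apart, si-circCpsf6 was higher in Wnt5a, Angpt2, Ntf5, Fgf15, Fgf21, Pros1 and Bdnf, and lower in Vegfd and Egf. Vegfd, a further ligand of Flt4, read 0.78, 1.56 and 0.87 FPKM against 0.34, 0.60 and 0.56 FPKM, and Egf, a ligand of the receptor Egfr, read 0.18, 0.22 and 0.16 FPKM against 0.13, 0.12 and 0.15 FPKM, both with si-circCpsf6 lower and groups apart. The cells thus held VEGF transcripts beside VEGF receptor transcripts near 0.

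Of 9 tested co-receptor genes none passed the test, 3 were higher and 0 lower at an unadjusted p under 0.05, and the median log2 fold change was -0.02. Gfra1, which binds GDNF and presents it to RET, read 0.99, 0.91 and 0.90 FPKM in si-NC and 3.29, 1.74 and 3.17 FPKM in si-circCpsf6. The groups lay apart, with a log2 fold change of 0.92 (SE 0.21, limma adjusted p = 0.072), but the gene reached the tested level only through its si-circCpsf6 values. Gpc1, a heparan sulfate proteoglycan, read 15.32, 14.47 and 13.95 FPKM against 25.96, 20.28 and 20.32 FPKM (limma adjusted p = 0.0864). Ngfr, given above, was the third co-receptor with an unadjusted p under 0.05.

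Of 30 tested adaptors and effectors, 1 fell and none rose, with 6 higher and 2 lower at an unadjusted p under 0.05 and a median of 0.00. The one that fell was Grap2, an adaptor of the GRB2 family best known in T cells, from 3.23, 3.93 and 6.19 FPKM to 0.47, 0.78 and 1.24 FPKM (limma adjusted p = 0.0335). With 1 library left out it did not pass (limma adjusted p from 0.067 without si-circCpsf6 replicate 1 to 0.141 without si-NC replicate 3), and with no filter the value was 0.119. Grap2 reached the tested level only through its si-NC values. Those higher at an unadjusted p under 0.05 were Irs2, Shc3, Plcg1, Nck2, Sh2b3 and Grb14. Irs2, the insulin receptor substrate with the smallest p of these, read 83.52, 55.17 and 67.67 FPKM against 192.35, 110.35 and 169.35 FPKM (limma adjusted p = 0.0612). The other gene with an unadjusted p under 0.05 and a lower level was Gab2, a docking protein, at 18.33, 19.01 and 17.85 FPKM against 12.52, 13.60 and 15.56 FPKM. The list of 13 RAS, RAF, MEK and ERK genes also holds Nf1 and Rasa1, which switch RAS off, so its counts mix roles. Of the 13 none passed, and the median was 0.03. At an unadjusted p under 0.05, 5 were higher and 1 lower (10.2% and 10.1% of all tested genes). Braf read 7.04, 6.81 and 6.25 FPKM against 10.73, 9.85 and 10.42 FPKM, and Map2k1, which encodes MEK1, read 17.57, 15.02 and 13.39 FPKM against 19.28, 25.67 and 24.41 FPKM (limma adjusted p = 0.0642 and 0.116). The others that were higher at an unadjusted p under 0.05 were Nras, Ksr1 and the RAS inhibitor Nf1. The one that was lower was Araf, which encodes a RAF kinase. The Nras values overlapped, since si-NC replicate 3 read 26.67 FPKM and si-circCpsf6 replicate 3 read 26.57 FPKM. Of 15 genes that damp receptors at the membrane none passed, 1 was higher and 1 lower at an unadjusted p under 0.05, and the median was 0.04. The first was Sh3kbp1, an endocytic partner of CBL, at 6.21, 4.18 and 5.29 FPKM against 8.76, 9.69 and 9.70 FPKM. The second was Ptpn2, a tyrosine phosphatase, at 7.08, 7.06 and 7.53 FPKM against 3.65, 5.28 and 5.10 FPKM.

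Of 18 tested genes induced by ERK signalling, 2 rose and none fell, against 0.902% and 0.786% of all tested genes. At an unadjusted p under 0.05, 8 were higher and 1 lower, against 10.2% and 10.1%, and the median was 0.48. Spry2, a feedback inhibitor of receptor tyrosine kinases, rose from 11.64, 7.67 and 9.38 FPKM to 43.12, 37.35 and 36.08 FPKM. Phlda1 rose from 7.87, 6.27 and 6.01 FPKM to 31.61, 31.92 and 17.41 FPKM. Spry2 had a limma adjusted p of 0.00844 and lost the call without si-NC replicate 3 (0.0517). Phlda1 had a limma adjusted p of 0.0284 and lost the call with no filter (0.0915) and when any 1 library other than si-circCpsf6 replicate 3 was left out (0.0517 to 0.135). Myc, the gene with an unadjusted p under 0.05 and a lower level, read 55.51, 57.45 and 55.30 FPKM against 28.67, 43.94 and 37.50 FPKM. These genes were known to have changed when the list was drawn up, so their count gives no independent support. Protein and phosphorylation were not measured.

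**Figure D5:**
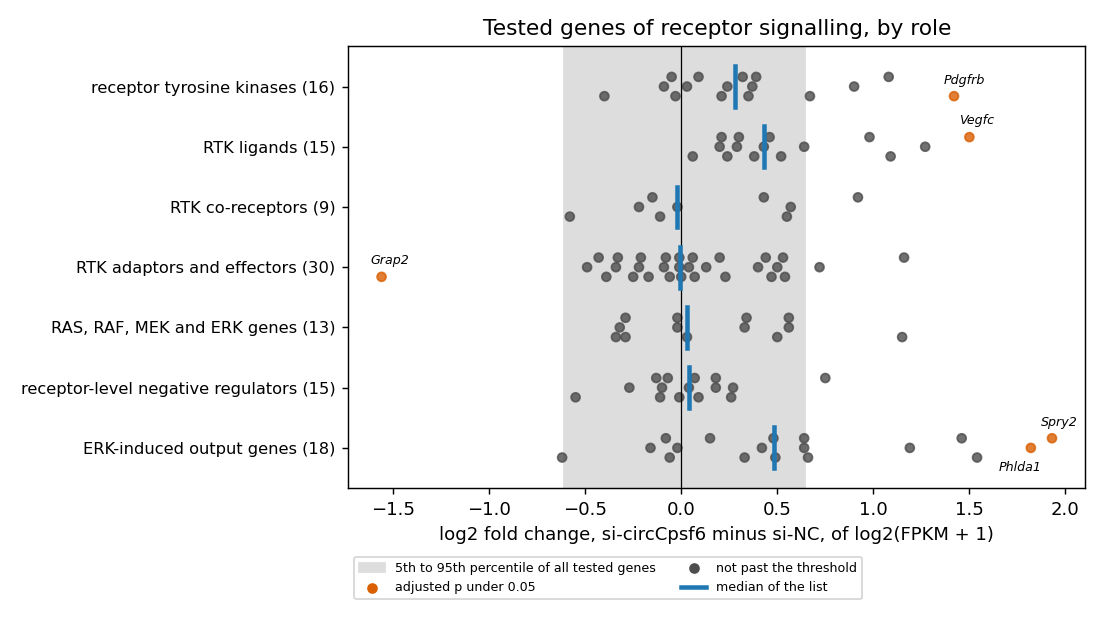
Log2 fold changes of the tested genes of receptor signalling by role, with the number tested in brackets, 1 point per gene, the median of each list as a blue bar and the middle 90% of all tested genes in grey. All 15 ligand genes lie above 0, and the named points in orange are the 5 genes past the adjusted threshold.

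The Eph receptors, which form the largest receptor tyrosine kinase family, and the cytoplasmic tyrosine kinases were read beside these receptors. Of 14 Eph receptors 3 were tested and none passed. At an unadjusted p under 0.05, 1 was higher and 0 lower, against 10.2% and 10.1% of all tested genes. Ephb4 was that one, at 0.76, 0.69 and 0.69 FPKM against 1.66, 1.65 and 1.85 FPKM (limma adjusted p = 0.0743), and it reached the tested level only through its si-circCpsf6 values. Epha8, below the tested level, was lower with groups apart, at 1.00, 1.00 and 0.81 FPKM against 0.54, 0.57 and 0.65 FPKM. Epha1 and Epha3, also below that level, were higher with groups apart, with group means of at most 0.207 FPKM. Ephb3 read 1.87, 1.97 and 1.27 FPKM against 3.00, 1.67 and 1.73 FPKM, with overlapping groups. Of 32 cytoplasmic tyrosine kinases 15 were tested and none passed, with a median log2 fold change of 0.06. At an unadjusted p under 0.05, 3 were higher and 1 lower, beside the same shares of 10.2% and 10.1% of all tested genes. Jak1 read 30.85, 27.79 and 37.39 FPKM against 14.91, 18.62 and 22.97 FPKM (limma adjusted p = 0.09). Those that were higher at that level were Abl2, Lck and Fyn, and Abl2 read 9.20, 11.62 and 9.86 FPKM against 16.65, 13.25 and 15.91 FPKM (limma adjusted p = 0.105). The difference between these lists and the receptors was not tested.

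The label of the cells was read against markers. Of 19 sympathetic neuroblast markers 15 reached a mean of 1 FPKM, with Chgb, Prph and Tubb3 the highest. Their sum was 2740 to 3690 FPKM in si-NC and 1880 to 2080 FPKM in si-circCpsf6, and the ranges did not overlap. Without Chgb, a granule protein at 2073.04, 1073.28 and 1749.20 FPKM against 463.20, 199.17 and 616.97 FPKM, the sums were 1620 to 1760 and 1460 to 1690 FPKM and overlapped. Of the 15 tested markers 7 had a fold change above 0, among them Prph, Mycn, Elavl4 and Gata2, and 8 below. Chga, a further granule protein, was the marker that fell, from 226.09, 226.21 and 248.61 FPKM to 99.15, 95.03 and 135.94 FPKM (limma adjusted p = 0.0335, and from 0.0516 to 0.16 with 1 library left out). The part of these marker differences in the receptor values was not tested. Of other cell types, 10 of 11 macrophage markers and 7 of 8 glial markers were below 1 FPKM, with Olig2 listed at 0. The macrophage markers summed to 2.66 to 12.6 FPKM in si-NC and 2.5 to 10.6 FPKM in si-circCpsf6. The glial markers summed to 3.29 to 4.15 FPKM in si-NC and 1.36 to 3.04 FPKM in si-circCpsf6, and these ranges did not overlap.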

How the data were processed

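RNA of Neuro2A cells was sequenced in 3 si-NC and 3 si-circCpsf6 libraries, with groups and replicate numbers from the sample titles. The authors deposited FPKM rounded to 2 decimals, and their fold change as a ratio and as log2, p-values and q-values, as their file headers state. No source used here names the authors' test or the program that gave the FPKM. Bowtie 0.12.2 and the mouse builds mm8 and mm9 appear, with no role, in the submitters' processing notes. Genes that averaged 1 FPKM or more were tested on log2(FPKM + 1), using limma 3.58.1 (R 4.3.3) with the 2 groups, an intensity trend and Benjamini-Hochberg adjustment over all tested genes. Fold changes on this scale understate those of low genes. The fit was tested on simulated data. Alternatives were median centring, quantile normalization, another pseudocount, other filters, no trend, a replicate block and leaving out each library. An exact permutation test of 3 against 3 cannot go below 0.1 and was not used. Positions and 3' UTRs came from GENCODE M21 (GRCm38), in which all 39 receptors were found by gene ID. The receptors and gene lists were chosen with earlier results of these data known. All receptors are accounted for. Of each pathway list, up to 4 members past the test are named or, where none passed, the 2 with the smallest p, and further genes were named after their values were seen.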

Additional observations from a re-analysis of the deposited data

How the results depend on the processing

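Pdgfrb kept its direction in all 13 alternatives that tested it (log2 fold change 1.12 to 2.12) and stayed called under median centring, quantile normalization, the filter at 0.5 FPKM and limma without the trend. The number of receptors called higher was 0 with a pseudocount of 0.1, 0 with no filter, which gave 4 rises and 9 falls over all genes, and 0 with a filter at 5 FPKM, which left Pdgfrb out. With 1 library left out it was 0 in each case, while rises over all genes ran from 1 to 43 and falls from 2 to 44. By the authors' q-value, 4 receptors were higher, with 418 rises and 297 falls over the tested genes. At a level of 5 FPKM, 10 receptors counted as expressed. Signs turned only among receptors near 0 and only with 1 library left out, in Ddr1 (-0.18 to 0.03), Tyro3 (-0.14 to 0.06), Ltk (-0.13 to 0.16) and Fgfr1 (-0.26 to 0.05). Blocking on the replicate number gave 6 rises and 5 falls over all genes and 0 receptors (Pdgfrb limma adjusted p = 0.0746), and Vegfc (0.0541), Grap2 (0.0506), Phlda1 (0.0506) and Chga (0.0615) lost their calls while Spry2 kept its own (0.0384). Deviations of same-numbered libraries correlated at 0.103, 0.129 and 0.084, each the highest for its library, which does not establish pairing. Unknown depth limits what can be said below 1 FPKM.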
